A study of Mus musculus with 4 samples.

Results

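The integrated stress response and the unfolded protein response were followed through 10 genes in ID4-EGFP+ spermatogonia, namely the transcription factor genes *Atf4*, *Atf5*, *Ddit3* and *Cebpb*, the feedback inhibitor *Trib3*, the amino acid synthesis genes *Asns*, *Psat1* and *Phgdh*, and the endoplasmic reticulum (ER) genes *Xbp1* and *Herpud1*. They were taken by gene symbol from the 54920 symbols in the count data. All 10 were found and all 10 passed the expression filter, which 23952 genes passed. RNA came from testes at postnatal day 8, and both groups had received 4-OHT, the active tamoxifen metabolite, from day 1 to day 3. The 2 control libraries came from Cnot3 flox/flox; Id4-eGfp mice without Cre, which the sample labels call wild-type. The 2 *Cnot3*-cKO libraries came from mice that carried the same alleles and *Ddx4*-creER, an inducible Cre driven by a germ cell promoter, so the floxed gene was to be removed in germ cells and not in somatic cells. Strain and the number of testes per library are not given in the sources used here, so p-values measure the spread between these libraries only. The study describes more biological replicates per group than the libraries analysed here.

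In the integrated stress response, kinases that sense amino acid shortage, misfolded protein, heme shortage or double-stranded RNA phosphorylate the translation factor eIF2 alpha. Most translation then slows, while ATF4 protein is made more efficiently from mRNA that is already present, so the *Atf4* transcript is not a direct reading of ATF4 protein. ATF4 raises transcription of genes for amino acid synthesis and import, for tRNA charging and for its own inhibitors. In the unfolded protein response, the ER membrane proteins PERK, IRE1 and ATF6 sense misfolded protein. PERK feeds into eIF2 alpha, IRE1 splices the *Xbp1* transcript into the form that encodes an active factor, and cleaved ATF6 turns on chaperone genes. Counts per gene do not separate spliced from unspliced *Xbp1*.

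Of the 10 genes, *Asns* and *Herpud1* rose in *Cnot3*-cKO cells, and the values of the others lay in both directions. *Asns*, which makes asparagine, was 1.76 times as high as in control cells, and *Herpud1*, an ER membrane protein of the degradation machinery for misfolded proteins, was 1.73 times as high. The other 8 did not pass the test, and in 5 of the 10 each *Cnot3*-cKO library stood above each control while 4 had both below. Genes were compared by the quasi-likelihood test of edgeR, with p-values adjusted over all tested genes by Benjamini-Hochberg, and a gene passed at an adjusted p under 0.01. By this rule 10.9% of all tested genes passed, 6.21% higher and 4.70% lower, and with 10 members nothing particular to them is read from 2 calls against that background. None of the 10 passed lower in the edgeR fit reported here or by DESeq2. At an unadjusted p under 0.05 by edgeR, 4 were higher and 3 lower. At that threshold 4164 of the 23952 tested genes were higher and 3695 lower. In the edgeR fit reported here and by DESeq2, no member both passed and exceeded the study's limit of a 2-fold change. In that edgeR fit 4.76% of tested genes met this limit (4.03% higher and 0.735% lower). Groups that do not overlap were common in these data, at 59.1% of tested genes (30.5% higher and 28.6% lower). The median log2 fold change was 0.19 over the 10 genes and 0.01 over all tested genes. The median of the 10 was 0.08 without control replicate 1, and with scaling to germ cell markers it was 0.37 against 0.19 for all tested genes.

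Sequence around the start of each gene was searched for the elements that the known factors of these pathways bind, so that members that rose could be set beside members that did not. The windows were RefSeq's, on GRCm38.p6, from 250 bases before to 50 bases after each annotated start, and all 10 genes matched, with 2 windows each for *Atf5* and *Psat1*. Motifs were searched on both strands. TGATGNAA stands for the C/EBP-ATF response element bound by ATF4, and ERSE-II is the ER stress element, which ATF6 and XBP1 bind. The classical ER stress element (ERSE) and the unfolded protein response element (TGACGTGG) were searched as well. The 3 genes with a match are shown as 30 bases each, 5′ to 3′ on the strand of the gene, with the matched letters in capitals.
*Asns*, C/EBP-ATF response element: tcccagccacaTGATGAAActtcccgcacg
*Herpud1*, C/EBP-ATF response element on the opposite strand: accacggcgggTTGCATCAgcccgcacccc
*Herpud1*, ERSE-II: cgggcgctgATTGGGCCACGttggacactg
*Trib3*, C/EBP-ATF response element on the opposite strand: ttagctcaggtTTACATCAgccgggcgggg

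The *Asns* stretch lies at chr6:7693214-7693243 on the reverse strand, and its match begins at position -23. Positions are counted from the start that RefSeq annotates, which differs in these genes from the GENCODE M21 gene boundary printed with each member. The *Herpud1* stretches lie at chr8:94386306-94386335 and chr8:94386368-94386397 on the forward strand, with matches from positions -112 and -52. The *Trib3* stretch lies at chr2:152344028-152344057 on the reverse strand, with its match from position 14. By the GENCODE M21 coordinates the *Asns* match lies inside the gene and the *Trib3* match just upstream of it, so neither can be placed before or after the start with certainty, while both *Herpud1* matches lie upstream by either annotation. Among all 32851 windows of the same length, 3.97% held TGATGNAA, 0.0365% held ERSE-II, 0.119% held ERSE and 0.676% held TGACGTGG. The last 2 motifs were in none of the windows of the 10 genes. Both genes that rose carry a match, and so does *Trib3*, which was at lower values in *Cnot3*-cKO cells without passing. Whether any factor bound these sites in these cells was not tested, and no match says only that these letters are not in this window.

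*Cnot3* itself had 58.6 and 50.2 CPM (read counts scaled to the TMM-adjusted library size) in controls, against 19.2 and 19.9 CPM in *Cnot3*-cKO libraries (log2 fold change -1.48, standard error, SE, 0.13, edgeR adjusted p = 1.48e-05). Control libraries were deeper (40957899 and 43378493 reads) than *Cnot3*-cKO libraries (22192964 and 28019626 reads), so values of genes with few reads are less precise in the second group. Germ cell markers were high in all 4 libraries, with 5616 to 5949 CPM summed over 8 genes in controls and 5008 to 5192 CPM in *Cnot3*-cKO libraries. Among these 8, 0 passed higher and 2 passed lower, *Piwil2* (log2 fold change -0.44) and *Mov10l1* (-0.49). Of 8 markers of undifferentiated spermatogonia, 3 passed higher and 3 lower. Markers of other testis cells were not absent. Sertoli cell markers summed to 256 and 275 CPM in controls and 713 and 735 CPM in *Cnot3*-cKO libraries (11 of 12 passed higher), Leydig cell markers to 322 and 368 CPM against 831 and 896 CPM (5 of 5 tested), and macrophage markers to 189 and 295 CPM against 534 and 653 CPM (9 of 9). Peritubular myoid markers passed higher in 1 of 5 and endothelial markers in 2 of 4 tested. Genes induced by tissue dissociation, such as *Fos* and *Jun*, summed to 130 and 135 CPM in controls and 201 and 238 CPM in *Cnot3*-cKO libraries (4 of 13 higher). Of these markers, the Leydig cell gene *Insl3* had 0 reads in all 4 libraries and the endothelial gene *Emcn* had 0 reads in 1 control library. The part of these cells and of handling in the results that follow was not tested, and a change in the number of cells of a type cannot be told apart from a change in RNA per cell.

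*Atf4*, the central transcription factor of the integrated stress response, is found at 80255184 to 80257541 of chromosome 15 (forward strand, GRCm38, as for all gene coordinates here). Its values were 87.3 and 93.2 CPM in the control libraries and 112 and 117 CPM in the *Cnot3*-cKO libraries. The groups did not overlap, and the gap between them was wider than the difference within either group. Its log2 fold change was 0.35 (SE 0.09, 95% interval 0.15 to 0.55), with an adjusted p of 0.0175, so it did not pass. The call depended on the setting, since *Atf4* passed in 5 of 11 alternatives, with adjusted p-values from 0.00173 to 0.165 over all of them. One of these was the fit without control replicate 2, which gave 0.38 (adjusted p = 0.00192).

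**Figure D1:**
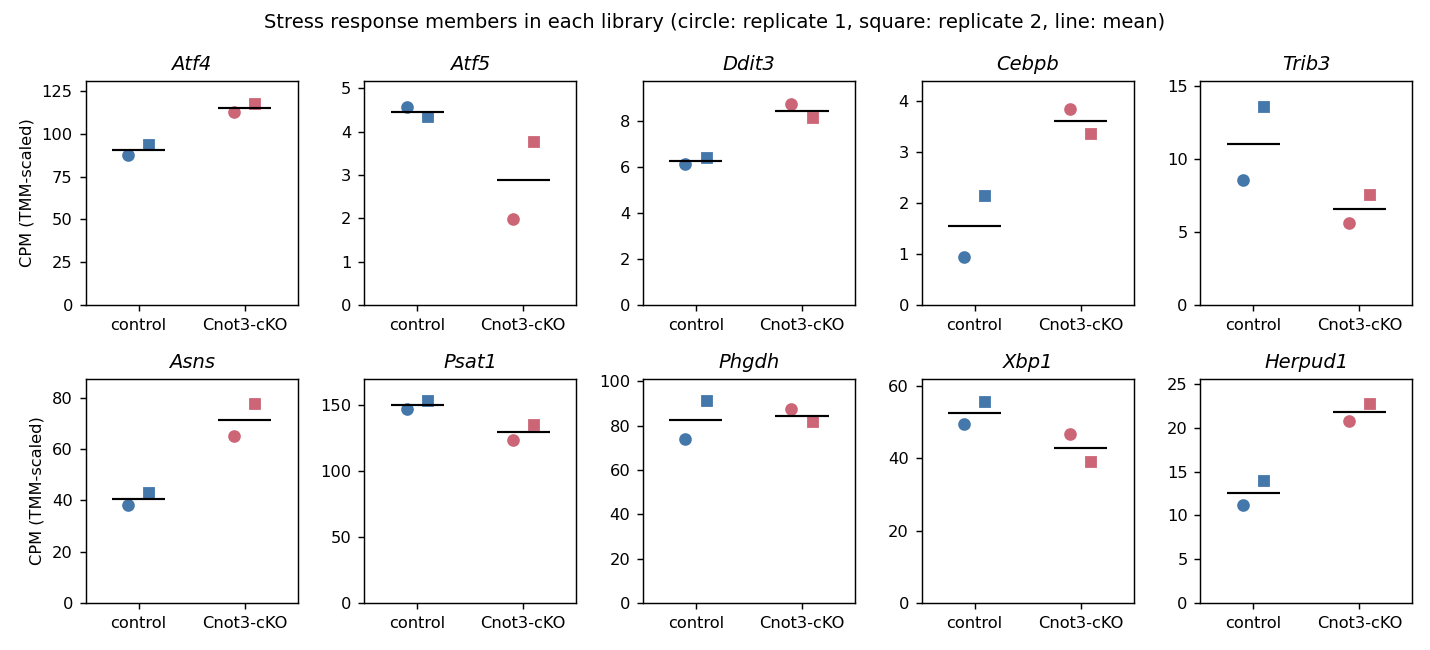
CPM of each of the 10 genes on its own axis from 0, in control and *Cnot3*-cKO libraries, with replicate 1 as a circle, replicate 2 as a square and the group mean as a line. *Asns* and *Herpud1* lie well above their controls, *Phgdh* overlaps between the groups, and *Trib3* and *Atf5* lie lower in *Cnot3*-cKO libraries with a wide spread in 1 group.

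*Ddit3* encodes CHOP, a factor that ATF4 induces and that favours cell death when ER stress lasts (chromosome 10, 127290774 to 127296288, forward strand). It had 6.16 and 6.39 CPM in controls and 8.74 and 8.14 CPM in *Cnot3*-cKO libraries. Both *Cnot3*-cKO values were above both control values, but with 198 to 269 reads per library the interval of the log2 fold change (0.43, SE 0.20) ran from -0.02 to 0.87 and the adjusted p was 0.171. GENCODE M21 holds 2 overlapping gene entries named *Ddit3*, and its exons share 68 bases with *Mars* on the other strand. The counts were made with GENCODE M24, which was not read here. If it holds the same overlaps, counts may be split or dropped there, since the counting options are not stated.

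*Atf5* encodes a relative of ATF4 that is also regulated by translation and serves the mitochondrial stress response (chromosome 7, 44812256 to 44816658, reverse strand). It had 4.57 and 4.35 CPM in controls and 1.99 and 3.77 CPM in *Cnot3*-cKO libraries. The control libraries were close to each other, while the *Cnot3*-cKO libraries differed from each other by more than the higher of them differed from the controls. The log2 fold change was -0.62 (SE 0.31, interval -1.30 to 0.06, adjusted p = 0.197), and omitting single libraries gave values between -1.17 and -0.25. Of its 1993 exonic bases, 82 overlap genes on the other strand.

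*Cebpb* encodes C/EBP beta, a partner of ATF4 and CHOP that is also abundant in macrophages and in steroid-producing cells (chromosome 2, 167688915 to 167690418, forward strand). It was the scarcest member in control cells, at 0.944 and 2.14 CPM, or 38 and 90 reads. In the *Cnot3*-cKO libraries it had 3.84 and 3.35 CPM, or 87 and 96 reads, above both controls. The log2 fold change of 1.22 (SE 0.38, interval 0.38 to 2.05) was the highest of the 10, yet the adjusted p was 0.0415. It was 0.73 without control replicate 1 (adjusted p = 0.175, the highest of 11 alternatives) and 1.91 without control replicate 2, where it passed (adjusted p = 5.30e-04, the lowest). It also passed with no expression filter (adjusted p = 0.00652). Macrophage and Leydig cell markers rose in the same libraries by median log2 fold changes of 1.32 and 1.35, and their part in the *Cnot3*-cKO value of *Cebpb* was not tested. Of its 1504 exonic bases, 312 overlap *Tmem189* on the other strand.

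*Trib3* encodes a pseudokinase that ATF4 and CHOP induce and that holds both in check (chromosome 2, 152337422 to 152344032, reverse strand). It had 8.57 and 13.6 CPM in controls and 5.65 and 7.58 CPM in *Cnot3*-cKO libraries. All *Cnot3*-cKO values were below the controls, opposite in sign to *Atf4* and *Ddit3*, but the control libraries differed from each other by more than the groups' nearest values did. The log2 fold change was -0.74 (SE 0.25, interval -1.28 to -0.20, adjusted p = 0.0549). Without control replicate 1 it was -1.05 and passed (adjusted p = 1.30e-04), without control replicate 2 it was -0.38, and it passed at -0.77 with no expression filter (adjusted p = 0.00744). Over 11 alternatives its adjusted p ran up to 0.374.

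Among the amino acid synthesis genes, *Asns* encodes asparagine synthetase, which converts aspartate to asparagine and is a standard ATF4 target (chromosome 6, 7675169 to 7693254, reverse strand). It had 38.1 and 43.0 CPM in controls and 65.1 and 77.6 CPM in *Cnot3*-cKO libraries, with 1476 to 2223 reads in each library. Every *Cnot3*-cKO value stood above every control value. The gap between the groups was several times the difference between the controls, and also wider than the larger difference between the *Cnot3*-cKO libraries. The means were 40.5 ± 3.49 and 71.4 ± 8.82 CPM (SD, n = 2 per group), and the log2 fold change was 0.82 (SE 0.12, interval 0.56 to 1.08, adjusted p = 5.79e-04). This rise was kept in all 11 alternatives, between 0.68 and 1.0 with adjusted p-values of at most 0.00145.

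*Phgdh* and *Psat1* encode enzymes of the first steps of serine synthesis and are ATF4 targets as well. *Phgdh* (chromosome 3, 98313170 to 98339990, reverse strand) had 73.9 and 91.1 CPM in controls and 87.4 and 81.6 CPM in *Cnot3*-cKO libraries. It was the single member whose groups overlapped, with a log2 fold change of 0.03 (SE 0.11, interval -0.21 to 0.28, adjusted p = 0.883), and a copy named *Phgdh-ps1* held 2 to 6 reads per library. *Psat1* (chromosome 19, 15904678 to 15947337, reverse strand) had 147 and 153 CPM in controls and 124 and 135 CPM in *Cnot3*-cKO libraries. Both *Cnot3*-cKO values were below both controls, and the log2 fold change was -0.21 (SE 0.09, interval -0.41 to -0.02, adjusted p = 0.113). The intervals of *Phgdh* and *Psat1* lie wholly below that of *Asns*, although the difference between these genes was not itself tested.

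Of the ER genes, *Herpud1* encodes a membrane protein that helps to assemble the complex that clears misfolded ER proteins, and it is strongly induced by ER stress in many cells (chromosome 8, 94386438 to 94395377, forward strand). It had 11.2 and 13.9 CPM in controls and 20.8 and 22.7 CPM in *Cnot3*-cKO libraries, with 452 to 650 reads in each library. Both *Cnot3*-cKO values were clearly above both controls. The means were 12.6 ± 1.88 and 21.7 ± 1.35 CPM (SD, n = 2 per group), and the log2 fold change was 0.79 (SE 0.17, interval 0.43 to 1.15, adjusted p = 0.00525). It passed in 10 of 11 alternatives, and without *Cnot3*-cKO replicate 2 it was 0.72 and did not pass (adjusted p = 0.0207, range over the alternatives 4.38e-05 to 0.0207).

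*Xbp1*, the transcript that IRE1 splices, is found at 5520659 to 5525893 of chromosome 11 (forward strand). Its values were 49.5 and 55.5 CPM in controls and 46.8 and 39.1 CPM in *Cnot3*-cKO libraries. The *Cnot3*-cKO values were lower without overlap, but each group spread by more than the gap between the nearest values. Its log2 fold change was -0.29 (SE 0.12, interval -0.56 to -0.02, adjusted p = 0.118), which has the opposite sign to *Herpud1*.

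**Figure D2:**
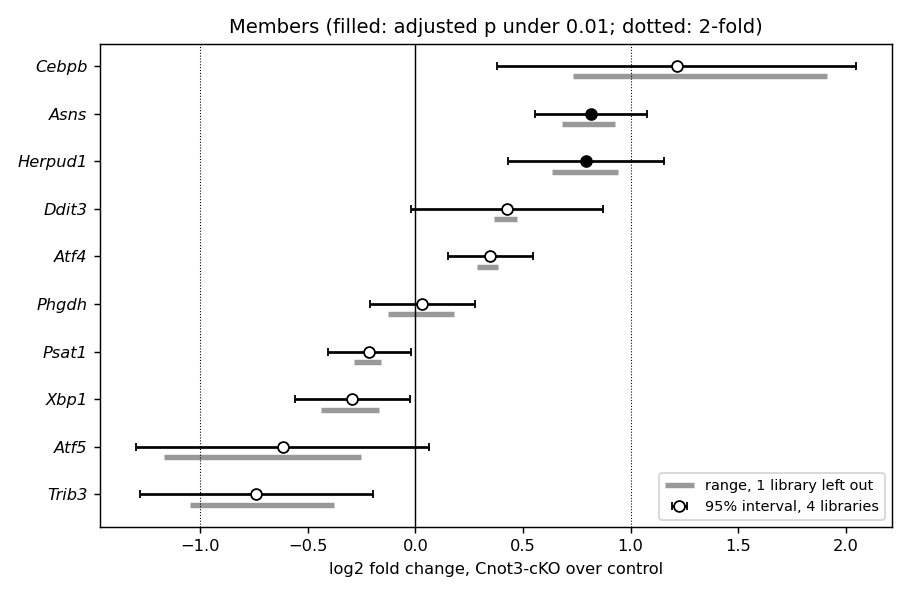
Log2 fold change of each gene with its 95% interval (black) and the range when 1 library at a time was left out (grey bar). Filled points passed at an adjusted p under 0.01, which only *Asns* and *Herpud1* did, and the dotted lines mark a 2-fold change.

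Levels were compared between genes after division by the exon length of the GENCODE M21 gene. In control cells *Atf4* was highest with 38.3 ± 1.77 CPM per kb (SD, n = 2), followed by *Psat1* (35.3 ± 1.0) and *Phgdh* (33.2 ± 4.89). The libraries of *Psat1* and *Phgdh* overlapped, and so did those of *Xbp1* (16.2 ± 1.31 CPM per kb) and *Asns* (14.8 ± 1.28). The lowest levels were those of *Herpud1* (5.38 ± 0.806), *Trib3* (5.21 ± 1.67), *Ddit3* (3.66 ± 0.0975), *Atf5* (2.24 ± 0.0776) and *Cebpb* (1.02 ± 0.562). Of these, the libraries of *Herpud1* and *Trib3* overlapped, and no other neighbours in the control order did.

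In *Cnot3*-cKO cells *Atf4* was again highest at 48.7 ± 1.47 CPM per kb (SD, n = 2). *Phgdh* (34.0 ± 1.66) and *Psat1* (30.5 ± 1.95) followed, with no overlap of libraries but with SDs that reached each other. *Asns* stood at 26.1 ± 3.22 CPM per kb against 13.2 ± 1.69 for *Xbp1*, so the libraries of this pair, which overlapped in controls, were apart. *Herpud1* (9.32 ± 0.578) and *Trib3* (3.11 ± 0.641) were apart as well, with *Ddit3* (4.93 ± 0.249) between them. *Cebpb* (2.39 ± 0.23) lay above *Atf5* (1.44 ± 0.633), in the reverse of their order in controls.

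**Figure D3:**
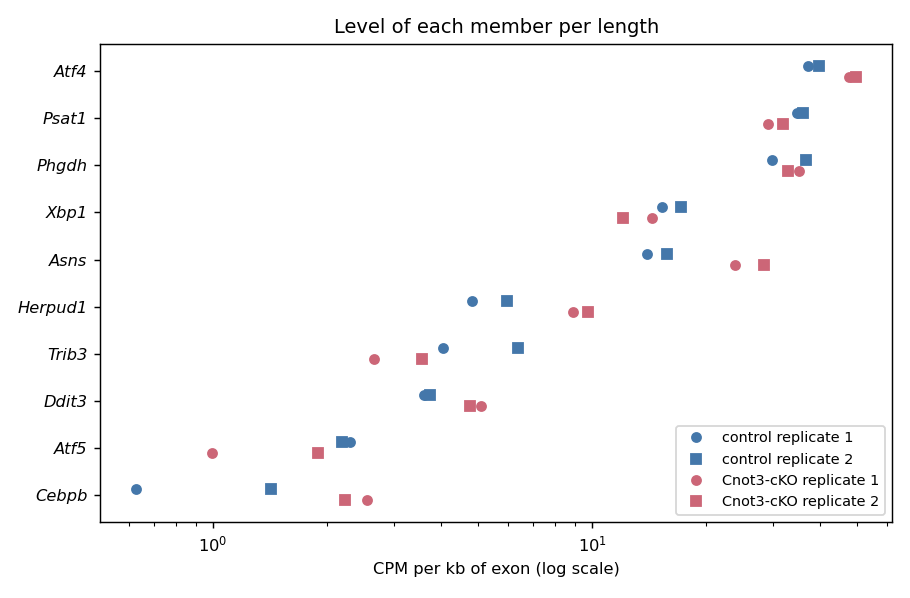
CPM per kb of exon on a log axis for each gene, ordered by the control mean, with control libraries in blue and *Cnot3*-cKO libraries in red. *Xbp1* and *Asns* lie side by side in controls and apart in *Cnot3*-cKO libraries, at 13.2 and 26.1 CPM per kb on average.

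The other genes of these pathways were described from 9 lists with 92 genes, of which 90 were tested. Of these, 9 rose and 9 fell in *Cnot3*-cKO cells and 72 did not pass, against 6.21% and 4.70% of all tested genes. In the edgeR fit reported here and by DESeq2, none both passed and exceeded 2-fold. At an unadjusted p under 0.05 by edgeR there were 46, 21 higher and 25 lower. Such p-values were common, with 4164 higher and 3695 lower among the 23952 tested genes. The median log2 fold change over the 90 genes was -0.04. All 18 kept their sign in every alternative. The calls of all 9 genes that fell were lost when libraries were scaled to germ cell markers, a scaling that moved the median of all tested genes from 0.01 to 0.19, while the 9 genes that rose stayed called. Library size only lost the calls of *Eif2ak1* and *Pdia4*. Of the 18 calls, omitting *Cnot3*-cKO replicate 1 lost 9 and omitting *Cnot3*-cKO replicate 2 lost 8. Both omissions lost *Eif2ak1*, *Nars*, *Sars*, *Pdia3*, *Pdia4* and *Erlec1*, the first alone lost *Ppp1r15b*, *Sel1l* and *Spcs1*, and the second alone lost *Mbtps1* and *Hyou1*. *Erlec1* was also lost without control replicate 2.

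Upstream of ATF4, 1 of 12 genes for the eIF2 alpha kinases, their phosphatase and the exchange factor eIF2B rose and 2 fell. The median of this list was -0.02, which turned to 0.16 with germ cell scaling, 0.05 with library size only and 0.01 with a mean count of at least 50. *Eif2ak2*, which encodes the double-stranded RNA sensor PKR, was at 16.9 ± 1.46 CPM in controls and rose to 31.3 ± 1.56 CPM (SD, n = 2; log2 fold change 0.89, adjusted p = 9.10e-04). It is also induced by interferon. *Eif2ak1*, the heme-regulated kinase, fell from 75.4 ± 4.22 to 54.7 ± 1.86 CPM (log2 fold change -0.46, adjusted p = 0.00697). *Ppp1r15b*, the constitutive subunit of the eIF2 alpha phosphatase, fell from 294 ± 4.58 to 209 ± 5.92 CPM (log2 fold change -0.50, adjusted p = 0.00101). The kinase genes for ER stress and amino acid shortage, *Eif2ak3* (PERK, -0.18) and *Eif2ak4* (GCN2, -0.06), are given as chosen after their values were seen and did not pass.

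Of 10 tested partners and feedback genes of ATF4, 0 rose and 1 fell in the edgeR fit reported here and by DESeq2. At an unadjusted p under 0.05 by edgeR, 5 were higher and 2 lower. The median log2 fold change was 0.46, and 0.45 over the 7 genes with a mean count of at least 50. *Cebpg*, a dimer partner of ATF4, fell from 94.2 ± 4.71 to 63.1 ± 0.0937 CPM (SD, n = 2 per group; log2 fold change -0.58, adjusted p = 0.00131). *Chac1*, singled out after its value was seen, degrades glutathione and is a sensitive ATF4 target. It had 0.646 and 0.452 CPM in controls and 1.5 and 2.03 CPM in *Cnot3*-cKO libraries and did not pass (log2 fold change 1.68, SE 0.48, adjusted p = 0.0255).

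Genes for further amino acid and one-carbon synthesis (9 tested) had 0 calls in the edgeR fit reported here or by DESeq2. At an unadjusted p under 0.05 by edgeR, 2 were higher and 1 lower, and with germ cell scaling 1 passed higher. The smallest p-values there were those of the mitochondrial folate enzyme *Mthfd2* (log2 fold change -0.30, adjusted p = 0.0624) and the proline synthesis enzyme *Aldh18a1* (0.26, adjusted p = 0.0800). Amino acid transporters (8 tested) also had 0 calls in the edgeR fit reported here, against 1 lower by DESeq2. At an unadjusted p under 0.05 by edgeR, 1 was higher and 4 lower, and the median log2 fold change was -0.26. With germ cell scaling or a mean count of at least 50, 1 transporter passed higher and 0 lower. With no expression filter or the replicate block, 1 passed in each direction. *Slc7a11*, the cystine importer, had 2.21 and 1.95 CPM in controls and 3.66 and 6.28 CPM in *Cnot3*-cKO libraries (log2 fold change 1.26, adjusted p = 0.0131). *Slc7a1*, the importer of cationic amino acids, had a log2 fold change of -0.44 (adjusted p = 0.0220).

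Cytosolic aminoacyl-tRNA synthetases, which charge tRNAs and are ATF4 targets in many cells, had 4 of 12 genes higher and 0 lower by edgeR and by DESeq2, with 2 lower at an unadjusted p under 0.05. *Aars*, for alanine, was at 213 ± 13.6 CPM and rose to 309.5 ± 3.16 CPM (SD, n = 2; log2 fold change 0.54, adjusted p = 7.65e-04) and *Cars*, for cysteine, rose from 56.9 ± 3.22 CPM to 85.1 ± 1.54 CPM (0.58, adjusted p = 0.00157). *Nars*, for asparagine, rose by 0.43 on the log2 scale (adjusted p = 0.00254) and *Sars*, for serine and added after its value was seen, by 0.43 (adjusted p = 0.00551), both among the calls that either *Cnot3*-cKO omission lost. The other 8 lay between -0.26 and 0.11, and the median of the list was 0.08.

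In the ER, sensors and their proteases had 0 of 5 genes higher by edgeR and by DESeq2, with 0 higher at an unadjusted p under 0.05, and 1 lower. *Mbtps1*, the protease that activates ATF6, fell from 291 ± 1.97 to 211 ± 5.48 CPM (SD, n = 2 per group; log2 fold change -0.46, adjusted p = 0.00161). Chaperones and folding enzymes had 0 of 15 higher and 4 lower in the edgeR fit reported here, and 1 higher and 5 lower by DESeq2. At an unadjusted p under 0.05 by edgeR, 1 was higher and 7 lower. Library size only gave 1 higher and 3 lower, no expression filter 1 and 6, and germ cell scaling 1 and 0. The median of these 15 genes, -0.29 (log2), stayed negative in all 11 refits, at -0.07 without control replicate 2.

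Of the 4 that fell, *Ero1l*, the oxidase that drives disulfide bond formation, went from 160.4 ± 2.6 to 106.9 ± 2.34 CPM (SD, n = 2 per group; log2 fold change -0.59, adjusted p = 5.67e-04). *Hyou1*, an ER chaperone, fell by 0.47 (adjusted p = 0.00122) and the disulfide isomerase *Pdia3* fell by 0.40 on the log2 scale (adjusted p = 0.00305), and *Pdia4*, named after its value was seen, was the fourth. *Hspa5*, the ER chaperone BiP and the usual reading of ER stress, is given after its value was seen. It had 546 and 668 CPM in controls and 659 and 685 CPM in *Cnot3*-cKO libraries, and these overlapped (log2 fold change 0.15, interval -0.06 to 0.35, adjusted p = 0.312).

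ER-associated degradation had 1 of 12 genes higher and 1 lower, and its median of -0.13 turned to 0.06 with germ cell scaling. The lectin gene *Erlec1* was at 11.4 ± 1.02 CPM and rose to 18.7 ± 0.192 CPM (SD, n = 2; log2 fold change 0.72, adjusted p = 0.00822), a call that 3 of 4 single-library omissions lost, and *Sel1l*, the scaffold of the ubiquitin ligase HRD1, fell from 193 ± 2.96 to 141 ± 8.39 CPM (log2 fold change -0.45, adjusted p = 0.00275). Secretory targets of XBP1 had 3 of 7 higher and 0 lower by edgeR, against 1 lower by DESeq2 and 1 at an unadjusted p under 0.05. These were *Serp1*, which stabilizes proteins at the translocon (log2 fold change 0.82, adjusted p = 4.48e-04), the vesicle coat gene *Sec24d* (0.76, adjusted p = 0.00105) and the signal peptidase subunit *Spcs1* (0.76, adjusted p = 0.00376). The median of the 7 was -0.09 although 3 rose, and it turned to 0.09 with germ cell scaling, 0.04 without control replicate 2 and 0.02 without *Cnot3*-cKO replicate 1.

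**Figure D4:**
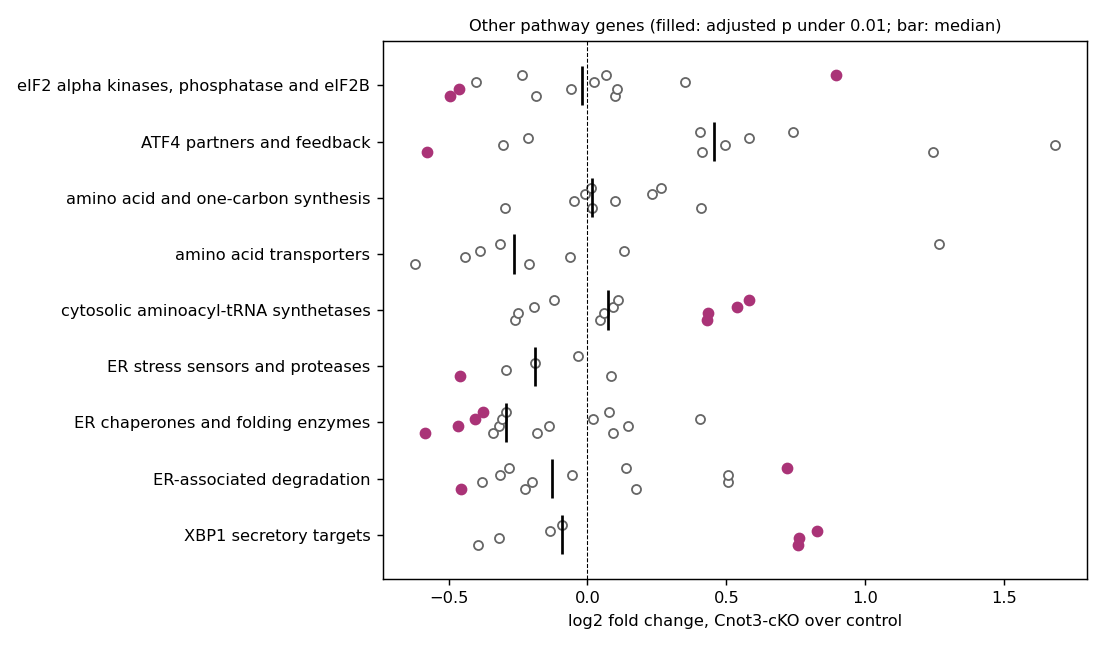
Log2 fold change of each of the 90 tested genes outside the 10 members, by list, with filled points for an adjusted p under 0.01 and a bar at the median of each list. The 4 filled synthetase genes and 3 filled XBP1 secretory genes lie above 0, and the 4 filled chaperone and folding genes lie below 0.

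Likeness of pattern was measured as the Euclidean distance between log2 CPM values centred on each gene's mean over the 4 libraries, among the 90 tested pathway genes. *Serp1* was nearest to *Asns* (distance 0.07), followed by *Spcs1* (0.27). It was also nearest to *Herpud1* (0.19), followed by *Cars* (0.26). With 4 libraries such distances mostly reflect the difference between the groups.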

How the data were processed

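ID4-EGFP+ cells were sorted from day 8 testes and RNA was sequenced as stranded total RNA. The values deposited by the authors are whole read counts per gene symbol, not normalized. Per the methods, the authors filtered reads on quality, used STAR for alignment to mm10 and featureCounts with GENCODE M24 for counting. Options for strand and for reads shared between genes are not stated.

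Counts were fitted across all genes with edgeR 4.0.16 in R 4.3.3 (default expression filter, TMM scaling, quasi-likelihood F test, no covariates, Benjamini-Hochberg adjustment). A gene passed at an adjusted p under 0.01, and the study's limit of a 2-fold change was counted separately. Standard errors and 95% intervals come from this fit. The smallest two-sided p that exact permutation allows for 2 libraries in each group is 0.333, so all p-values rest on the dispersion model. The study used DESeq2, and DESeq2 1.42.0 was an alternative here. Other alternatives were the scaling (RLE, library size only, germ cell markers), the filter (none, mean count of at least 50), a replicate block, an adjusted p under 0.05 and leaving out each library. As a check of the code, the procedure was run on simulated counts drawn with the dispersion trend of the fit. Equal numbers of genes were raised and lowered there, so that run does not measure accuracy on the real libraries. Libraries of a group differed by more than sampling noise. Depth ranged from 22192964 to 43378493 reads, and 3 reads were taken as the floor, which no member came near.

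The 10 members and all lists were chosen with earlier results of these data known. Named genes were the members, *Cnot3*, copies of members, the nearest pathway genes and, in each list, up to 3 passing genes per direction with the largest change, or the 2 with the smallest p where none passed. Gene positions and exon lengths were read from GENCODE M21 (GRCm38, which is mm10). Promoter windows came from RefSeq. Figures were drawn with matplotlib 3.10.9 in Python 3.11.15. The single-cell data of the study were not analysed here.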

Additional observations from a re-analysis of the deposited data

How the results depend on the processing

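*Cnot3* and *Asns* kept direction and call in all 11 refits, and of the other members only *Phgdh* turned sign, to -0.13 without control replicate 1 and -0.027 without *Cnot3*-cKO replicate 1 (range 0.18 to -0.13 as libraries were omitted). With no expression filter 4 members passed, 1 of them lower and 1 past 2-fold, and 14 pathway genes were lower. At an adjusted p under 0.05, 4 members passed, all higher and 1 past 2-fold, with 32 pathway genes, 16 higher and 16 lower. With germ cell scaling 15 pathway genes were higher and 0 lower, and the share of all called genes that were higher was 86.4%, against 56.9% in the reported fit and 68.9% with library size only. Leaving out 1 library gave 1 to 4 members passing, 1 to 4 higher, 0 to 1 lower and 0 to 1 past 2-fold, and 10 to 32 pathway genes passing, 6 to 13 higher and 4 to 21 lower. Without control replicate 1 the 32 pathway genes included 21 lower. The fit with the replicate block passed 3 members, *Atf4* being added (adjusted p = 0.00873), and 24 pathway genes. The numbers pair libraries by number alone, and deviations of the libraries numbered 1 correlated by 0.064 over 16437 genes. Across all tested genes 1488 were higher and 1125 lower, which changed by over 1.5 times to 2006 lower with no filter, 346 lower with germ cell scaling, 2659 and 2266 at an adjusted p under 0.05, 2286 lower without control replicate 1 and 1769 lower without control replicate 2. What caused these differences was not tested. In a fit that leaves 1 library in a group, that library is assumed to vary like the others.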
